A study of Mus musculus with 4 samples.

Results

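The clustered replication-dependent histone genes supply the bulk histone proteins that package newly copied DNA. They were chosen by name: every gene of the deposited tables, with any copy suffix removed, whose symbol begins with Hist1h, Hist2h, Hist3h or Hist4h. This gave 68 of the 22011 genes in the tables, of which 6 code for linker histone H1, 18 for H2A, 19 for H2B, 12 for H3 and 13 for H4. By cluster, 54 belong to Hist1, 10 to Hist2, 3 to Hist3 and 1 to Hist4.

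RNA was sequenced from fetal liver of 2 mice whose genotype is given as a knockout (KO) of hnRNP L and of 2 wild-type (WT) mice. hnRNP L (heterogeneous nuclear ribonucleoprotein L, gene Hnrnpl) binds RNA and takes part in splicing. The lines named in the growth protocol are CD45.1, Gt(ROSA)26Sortm4(ACTB-tdTomato,-EGFP)Luo, LckCre and C57BL/6. Which line or Cre gave these 4 samples, how the gene was deleted and the age of the embryos were not given in the sources used here. Total RNA was depleted of ribosomal RNA, so that transcripts without a poly(A) tail were kept, and which libraries shared a sequencing slide is not given, so slide and genotype cannot be told apart.

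Their mRNAs accumulate in S phase and are degraded when DNA replication stops. Nearly all lack introns, and their mRNAs end not in a poly(A) tail but in a short stem-loop that the stem-loop binding protein Slbp holds and that is cut from the precursor with the help of the U7 small nuclear ribonucleoprotein, whose own Sm-like subunits are Lsm10 and Lsm11. Npat, a coactivator found at the histone gene clusters, and Casp8ap2 (also called FLASH) act in their expression. Fetal liver is a site of blood formation in which many erythroid progenitors divide.

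The stem-loops are shown because they are the mark that this group of mRNAs shares. A 16-base pattern, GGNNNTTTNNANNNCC with at least 5 of 6 stem bases paired, was sought after the stop codon in mouse transcripts of the GENCODE annotation on GRCm38, on the transcript strand. It was found in 43 of 68 genes, 21 to 58 bases after the stop codon. Of the 25 genes without it, 18 have an annotated transcript that ends within 60 bases of the stop codon, so the absence says only that these letters are not in that transcript. In 22 of the 43 genes with it, the annotated transcript runs on for over 100 bases. In 24 of the 68 genes the annotated transcript is within 10 bases of the length of the counted row. A match therefore does not show where the counted RNAs end. Stem bases are in capitals and the loop is in lower case:
the most frequent form, in 25 genes: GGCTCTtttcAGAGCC
in 7 genes, all H4: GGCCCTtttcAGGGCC
in 6 genes: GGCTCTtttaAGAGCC
in 2 genes, Hist1h4i and Hist2h4: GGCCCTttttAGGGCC
in 2 genes, Hist1h4b and Hist1h4j: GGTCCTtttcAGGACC
in 1 gene, Hist2h2ac: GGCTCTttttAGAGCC
All 11 H4 genes with a match carry the 5′ stem arm GGCCCT (9 genes) or GGTCCT (2 genes), and all 32 matches in the other classes carry GGCTCT.

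The promoters are shown because genes that were lower together in KO can be compared in the letters before their start sites. RefSeq promoters (GRCm38.p6, 250 bases before to 50 bases after each start) matched 62 of the 68 genes. Capitals mark exact matches, on either strand, to the octamer ATTTGCAT, the CCAAT box CCAAT, the TATA box TATAAA and the H1 box AAACACA; matches of different motifs may overlap.
Hist1h1b, chr13:21780576-21780875 (minus strand): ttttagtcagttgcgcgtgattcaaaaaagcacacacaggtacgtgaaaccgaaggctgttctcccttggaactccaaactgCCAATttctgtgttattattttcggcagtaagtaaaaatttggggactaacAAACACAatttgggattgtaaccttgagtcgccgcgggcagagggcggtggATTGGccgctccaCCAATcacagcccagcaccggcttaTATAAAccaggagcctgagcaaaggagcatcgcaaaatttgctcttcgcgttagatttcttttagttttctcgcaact
Hist1h2bm, chr13:21721794-21722093 (plus strand): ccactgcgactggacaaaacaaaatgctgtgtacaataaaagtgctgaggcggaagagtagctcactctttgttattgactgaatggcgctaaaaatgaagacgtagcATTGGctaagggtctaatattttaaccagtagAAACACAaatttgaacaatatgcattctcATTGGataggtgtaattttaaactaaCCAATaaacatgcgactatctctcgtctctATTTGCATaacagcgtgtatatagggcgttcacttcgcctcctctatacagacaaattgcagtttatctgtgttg
Hist1h2bp, chr13:21787238-21787537 (plus strand): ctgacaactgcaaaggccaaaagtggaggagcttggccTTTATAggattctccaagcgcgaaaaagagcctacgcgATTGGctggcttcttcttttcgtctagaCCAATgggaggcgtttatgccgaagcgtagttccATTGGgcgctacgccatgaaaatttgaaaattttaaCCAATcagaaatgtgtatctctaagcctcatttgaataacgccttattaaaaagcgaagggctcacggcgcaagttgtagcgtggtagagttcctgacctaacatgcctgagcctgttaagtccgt
Hist1h3c, chr13:23745472-23745771 (minus strand): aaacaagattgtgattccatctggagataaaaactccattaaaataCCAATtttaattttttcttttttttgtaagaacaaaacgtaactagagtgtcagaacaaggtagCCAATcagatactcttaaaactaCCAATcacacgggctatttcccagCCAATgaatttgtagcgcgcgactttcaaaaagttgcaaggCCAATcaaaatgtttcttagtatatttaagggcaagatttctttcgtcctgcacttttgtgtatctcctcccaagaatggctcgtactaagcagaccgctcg
Hist1h4d, chr13:23581318-23581617 (plus strand): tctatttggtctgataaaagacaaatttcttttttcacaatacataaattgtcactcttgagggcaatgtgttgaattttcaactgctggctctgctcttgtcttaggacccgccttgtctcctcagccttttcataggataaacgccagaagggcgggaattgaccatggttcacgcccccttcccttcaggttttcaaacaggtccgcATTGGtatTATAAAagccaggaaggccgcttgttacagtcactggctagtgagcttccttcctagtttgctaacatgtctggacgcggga
A CCAAT match lay in all promoters of H1 (6), H2A (18), H2B (16) and H3 (10) but in 3 of 12 of H4, against 37.4% of all 32851 mouse promoters in the table. The octamer was found in 7 of 18 H2A and 6 of 16 H2B promoters and in none of the other classes, against 1.74% of all promoters. The H1 box was found in 5 of 6 H1, 2 of 18 H2A and 2 of 16 H2B promoters and in none of H3 or H4, against 7.18% of all. TATAAA was found in 35 of 62 promoters, against 13.6% of all. In 10 cases an H2A and an H2B gene point away from each other with overlapping promoters, as Hist1h2bp does with Hist1h2an. Letters in such an overlap count once for each gene, so these matches are not separate sites. The octamers of Hist1h2ah and Hist1h2bk are the same letters, as are those of Hist1h2ae and Hist1h2bg. The same holds for the octamer and the H1 box of Hist1h2aa and Hist1h2ba. A match is a description of the letters and does not show that a factor binds there.

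Hnrnpl itself had 279 and 269 CPM (reads of a gene per 1000000 reads of the scaled library) in the KO libraries, against 459 and 603 CPM in the WT libraries. The log2 fold change was -0.95 (SE 0.16), with a Benjamini-Hochberg adjusted p of 0.011 in edgeR's quasi-likelihood test, the test used throughout. Whether the counted reads fall in a deleted part of the gene was not given in the sources used here. The 4 libraries held 33738859 to 56895354 reads on the gene rows used. KO replicate 2 is a male by its Ddx3y and Xist reads and the other 3 libraries are female, and cardiac muscle genes (summed 22.6 and 34.6 CPM in KO, 87.5 and 528 CPM in WT) were highest in WT replicate 2.

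Histone transcripts took up a smaller share of the reads in KO than in WT. Counting overlapping gene models once, which leaves 63 genes, histone reads made up 1.28% and 1.04% of the gene-row reads in the KO libraries, against 2.14% and 2.16% in the WT libraries. After scaling, their summed level was 12796 and 9749 CPM in KO, against 22376 and 22088 CPM in WT, a KO over WT ratio of 0.507. The KO libraries lay below both WT libraries, and the 2 KO libraries differed from each other more than the WT libraries did. With mapped reads of the file headers as the total, the share was 0.629% and 0.519% in KO and 1.03% and 1.10% in WT. Fewer cells that make these RNAs and less RNA per cell cannot be told apart in bulk samples, here or in any later result.

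By class, the KO over WT ratio of the summed level was 0.471 for H1, 0.562 for H2A, 0.540 for H2B, 0.555 for H3 and 0.438 for H4. The H1 genes summed to 4614 and 3409 CPM in KO, against 8549 and 8466 CPM in WT. The H2A genes summed to 1876 and 1171 CPM in KO, against 2538 and 2884 CPM in WT. H2B genes summed to 3766 and 3388 CPM in KO and to 6739 and 6505 CPM in WT. No class overlapped between the groups. H3 genes summed to 1296 and 952 CPM in KO, against 1915 and 2137 CPM in WT, and H4 genes to 1244 and 829 CPM in KO, against 2635 and 2095 CPM in WT. Of all histone reads, H1 made up 36.1% and 34.96% in KO and 38.2% and 38.3% in WT, and H2B 29.4% and 34.8% in KO and 30.1% and 29.5% in WT. Whether the classes differ from each other in their ratios was not tested. Sums and shares of reads are not corrected for row length or for sequence shared between genes. They therefore do not rank the classes by their number of RNA molecules.

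**Figure D1:**
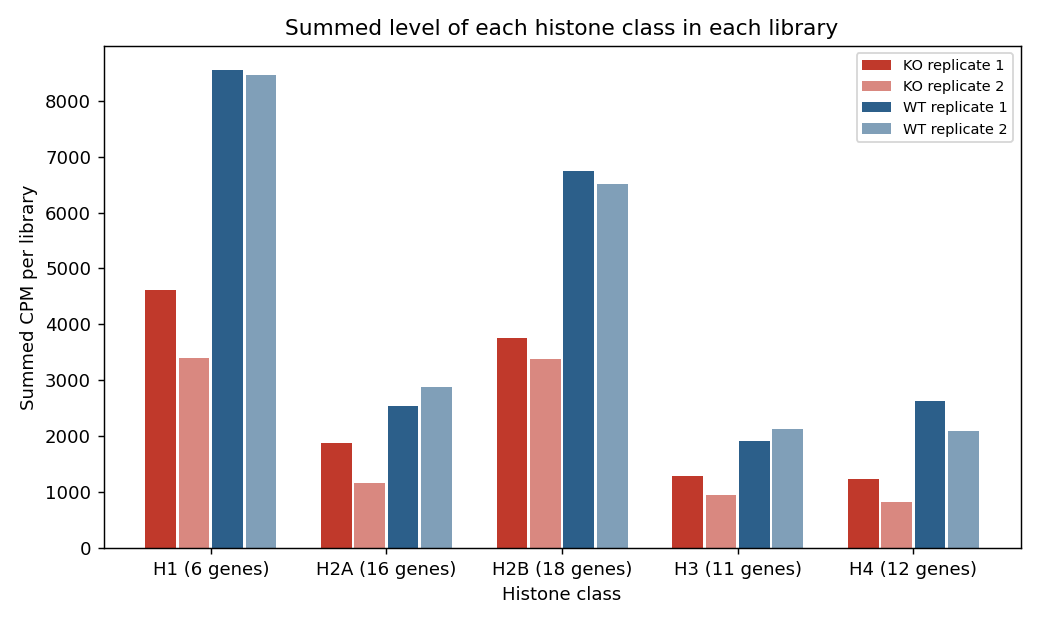
Summed level of each histone class per library, in CPM (bars, KO replicates left of WT replicates, 63 genes with overlapping gene models counted once). In every class both KO libraries are lower than both WT libraries, with H1 highest at 4614 and 3409 CPM in KO and 8549 and 8466 CPM in WT. The sums are not corrected for row length.

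Gene by gene, 66 of the 68 members passed the filter on low counts, and 46 of these were lower in KO and 0 higher at an adjusted p under 0.05. With overlapping gene models counted once, 45 of 62 tested members were lower and 0 higher. Of all 15029 genes tested, 9.44% were called lower and 11.4% higher. The median log2 fold change over the 66 was -0.92, beside 0.02 over all genes tested, and all 66 values were negative, from -2.68 to -0.16. Both KO libraries lay below both WT libraries for 64 of the 66 (60 of the 62 without overlapping models), against 31.7% of all genes tested. The exceptions were Hist1h2ah and Hist1h2ad, 2 weakly counted H2A genes. Hist1h4n (4 and 4 reads in KO) and Hist1h2ba (12 and 6) would not have passed the filter on their KO reads alone. Their negative values thus follow in part from the filter and add no weight to these counts. At 2 against 2 an exact permutation test of one gene cannot go below p = 0.333, so the calls depend on a spread estimated from all genes together, and they speak for these 4 libraries.

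The number of calls depended on which libraries were used. When KO replicate 2 was left out, 19 members were lower (2.19% of all genes tested). Leaving out WT replicate 2 gave 23 (3.07%), leaving out WT replicate 1 gave 28 (4.01%) and leaving out KO replicate 1 gave 55 (7.69%). None was called higher in any of these fits. With KO replicate 2 or WT replicate 2 left out, Hist1h2ad, Hist1h2bq and Hist1h2br had positive values, of which none was called, and all other members stayed negative in all 4 fits. By class these fits gave 3 to 4 lower H1 genes, 0 to 15 H2A, 7 to 15 H2B, 3 to 9 H3 and 5 to 12 H4 genes. The median log2 fold change was -0.63 without KO replicate 2 and -1.36 without KO replicate 1. KO replicate 2 is the only male library, so the fit without it is the only one with libraries of a single sex. The part that sex has in the histone values was not tested. KO replicate 2 was the lower of the KO libraries for 60 of the 66 members (median log2 difference, replicate 1 over 2, 0.70), while WT replicate 1 exceeded WT replicate 2 for 36. Over all genes with reads in every library the corresponding KO median was 0.00. In all 4 of these fits, 13 members kept their call: Hist1h1a, Hist1h1b, Hist1h2bb, Hist1h2be, Hist1h2bp, Hist1h3a, Hist1h3c, Hist1h3d, Hist1h4c, Hist1h4d, Hist1h4h, Hist1h4m and Hist2h4.

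**Figure D2:**
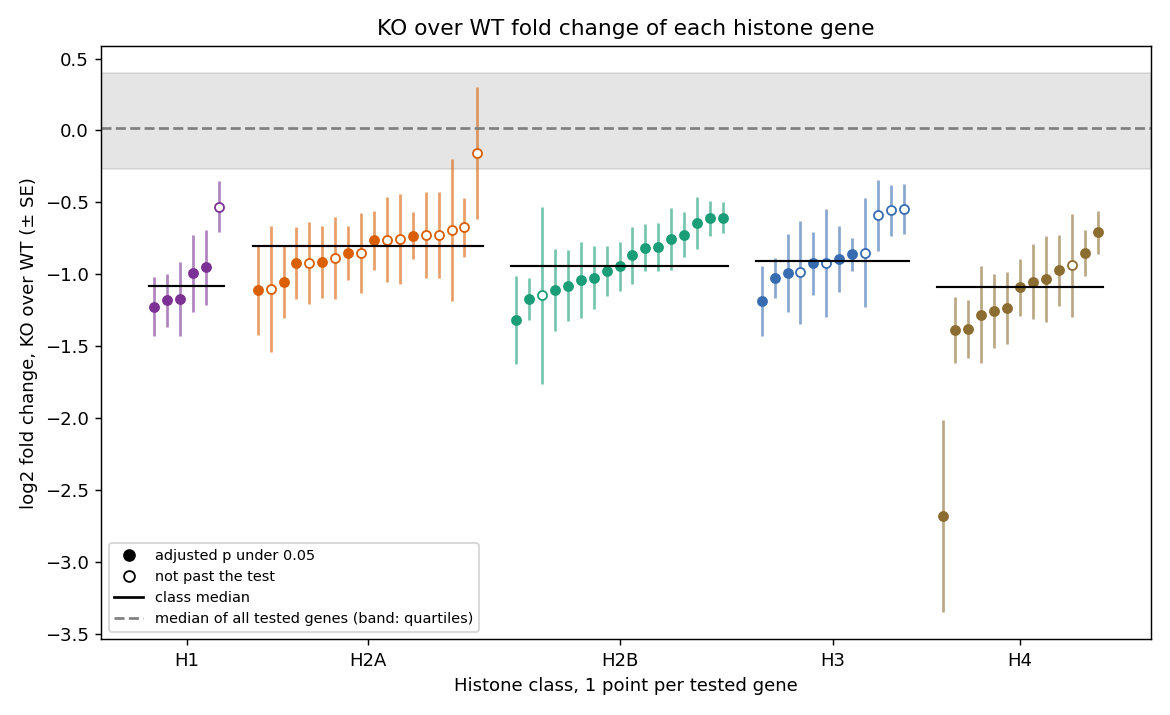
Log2 fold change, KO over WT, of each of the 66 tested histone genes with its SE, sorted within classes; filled points are past an adjusted p of 0.05 and the black line is the class median. All points lie below 0, with class medians between -1.09 (H4) and -0.81 (H2A), under the median of all tested genes, 0.02 (dashed, grey band: quartiles).

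Linker histone H1 binds where DNA enters and leaves the nucleosome. Its genes had the highest summed CPM of the 5 classes, without correction for row length or shared sequence. Of 6 H1 genes 5 were lower (all genes tested: 9.44%), with a median log2 fold change of -1.08. Hist1h1a, whose row lies on chromosome 13 from 23855537 to 23856283 (plus strand, coordinates as deposited, genome build unstated), had 1632 and 1401 CPM in KO, against 3700 and 3175 CPM in WT. Its level was 1517 ± 163 CPM in KO and 3437 ± 371 CPM in WT (SD, n = 2 each), a log2 fold change of -1.18 (SE 0.18, adjusted p = 0.010). Both KO libraries lay below both WT libraries, and no 50-base coding window of the gene occurs in another gene.

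Hist1h1b had 1120 and 774 CPM in KO, against 2198 and 2227 CPM in WT, a log2 fold change of -1.22 (SE 0.21, adjusted p = 0.011). Hist1h1c had 669 and 380 CPM in KO and 1153 and 1207 CPM in WT (log2 fold change -1.17, adjusted p = 0.021), and without WT replicate 2 its adjusted p was 0.056. The groups did not overlap for any of these 3 genes. Hist1h1e, at 669 and 558 CPM in KO and 778 and 991 CPM in WT, had a log2 fold change of -0.53 (SE 0.18) that did not pass the test (adjusted p = 0.072). Hist1h1d was called (log2 fold change -0.95, adjusted p = 0.041), but its adjusted p was 0.092 without KO replicate 2, 0.054 without WT replicate 1 and 0.125 without WT replicate 2.

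Hist1h1t, a linker histone of the testis, was at 3.11 and 3.29 CPM in KO, against 7.92 and 4.91 CPM in WT. It passed the test at a log2 fold change of -0.99 (adjusted p = 0.039), a call lost without KO replicate 1 (adjusted p = 0.105), without KO replicate 2 (0.116) or without WT replicate 1 (0.173). Its counts of 149 to 273 reads are small beside the 71863 or more of Hist1h1a. Hist1h2aa and Hist1h2ba, testis forms of H2A and H2B, had 37 to 90 and 6 to 20 reads per library, and neither passed the test (adjusted p = 0.111 and 0.216).

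Most H2B genes were lower. Of 17 tested, 16 passed the test, with a median log2 fold change of -0.94, and every one lay below WT in both KO libraries. Over all genes tested, 9.44% were called lower and 31.7% lay below WT in both KO libraries. H2B forms dimers with H2A in the nucleosome core. Hist2h2bb, the most abundant, had 1381 and 1083 CPM in KO, against 2000 and 2498 CPM in WT. Its log2 fold change was -0.87 (SE 0.20, adjusted p = 0.024), a call lost without KO replicate 2 (adjusted p = 0.084) or WT replicate 2 (0.110). None of its 50-base coding windows occurs in another gene.

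Hist1h2bg had 591 and 510 CPM in KO, against 1051 and 885 CPM in WT (log2 fold change -0.81, adjusted p = 0.017, and 0.063 without KO replicate 2 or 0.069 without WT replicate 1). Hist1h2bb had 453 and 547 CPM in KO, against 1079 and 884 CPM in WT (log2 fold change -0.97, adjusted p = 0.013). Hist1h2bm had 249 and 422 CPM in KO, against 779 and 638 CPM in WT (log2 fold change -1.08, adjusted p = 0.025, and 0.070 without WT replicate 1). Unlike most members, Hist1h2bb and Hist1h2bm were lower in KO replicate 1 than in KO replicate 2, as were Hist1h1t, Hist1h2ac, Hist1h2bc and Hist2h3c1. Hist1h2bp, with the smallest p of the class, had 29.7 and 25.2 CPM in KO, against 68.6 and 55.0 CPM in WT. Its log2 fold change was -1.17 (SE 0.15, adjusted p = 0.007). Hist1h2bq and Hist1h2br, 2 names for the same deposited spans, had 1 to 13 reads per library and were not tested.

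Of 18 H2A genes 7 were lower (all genes tested: 9.44%), with a median log2 fold change of -0.81. It was 0, 1 and 3 without WT replicate 2, KO replicate 2 and WT replicate 1, 15 without KO replicate 1, 11 with plain library totals and 16 with no filter beyond 1 read. Hist1h2ab, the most abundant, had 525 and 274 CPM in KO, against 659 and 815 CPM in WT. Its log2 fold change of -0.88 (SE 0.29) did not pass the test (adjusted p = 0.065), and its KO libraries differed by a log2 value of 0.94. Hist1h2ac had 272 and 283 CPM in KO, against 395 and 527 CPM in WT (log2 fold change -0.73, adjusted p = 0.023). That call was lost without KO replicate 1 (adjusted p = 0.055), KO replicate 2 (0.071) or WT replicate 2 (0.110).

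Hist3h2a, on chromosome 11, had 309 and 211 CPM in KO and 469 in both WT libraries (log2 fold change -0.85, adjusted p = 0.022), with adjusted p of 0.059, 0.051 and 0.060 without KO replicate 2, WT replicate 1 and WT replicate 2. Hist1h2ag had 181 and 91.7 CPM in KO, against 230 and 261 CPM in WT (log2 fold change -0.85, adjusted p = 0.067). The KO libraries were below WT for both genes. Hist1h2ad was at 4.74 and 1.60 CPM in KO and at 3.06 and 3.96 CPM in WT, and Hist1h2ah at 4.26 and 1.23 CPM in KO and at 4.05 and 4.79 CPM in WT. In both, KO replicate 1 lay within or above the WT range, and 100% and 95.6% of their 50-base coding windows occur in other genes. That share does not set them apart, as it is also 100% for Hist1h2ag.

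H3 and H4 form the tetramer at the centre of the nucleosome. Of 12 H3 genes 6 were lower (all genes tested: 9.44%), with a median log2 fold change of -0.91. Hist1h3c had 196 and 178 CPM in KO, against 350 and 411 CPM in WT (log2 fold change -1.03, SE 0.14, adjusted p = 0.008). Hist1h3d had 186 and 106 CPM in KO, against 356 and 307 CPM in WT (log2 fold change -1.18, adjusted p = 0.018). Hist1h3a had 77.1 and 67.4 CPM in KO, against 135 and 127 CPM in WT (log2 fold change -0.86, adjusted p = 0.007). All 3 kept their calls in every fit without a library. The H3 gene with the highest CPM, Hist1h3f, did not pass the test. It had 306 and 280 CPM in KO, against 357 and 504 CPM in WT (log2 fold change -0.56, adjusted p = 0.065). Hist1h3g was similar, at 151 and 108 CPM in KO and 172 and 206 CPM in WT (log2 fold change -0.55, adjusted p = 0.065). The remaining H3 genes that did not pass were Hist1h3e and the weakly counted Hist2h3b, Hist2h3c1 and Hist2h3c2-ps.

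Of 13 H4 genes 12 were lower (all genes tested: 9.44%), with a median log2 fold change of -1.09. Hist1h4d, the most abundant, had 288 and 239 CPM in KO, against 810 and 562 CPM in WT. The KO mean was 263 ± 34.8 CPM and the WT mean 686 ± 175 CPM (SD, n = 2 each), a log2 fold change of -1.38 (SE 0.20, adjusted p = 0.009). Hist1h4h had 203 and 152 CPM in KO, against 314 and 327 CPM in WT (log2 fold change -0.85, adjusted p = 0.015). Hist1h4c had 179 and 117 CPM in KO and 331 and 301 CPM in WT (log2 fold change -1.09, adjusted p = 0.014). None of these 3 overlapped between groups.

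Hist1h4f had 182 and 94.3 CPM in KO, against 424 and 247 CPM in WT (log2 fold change -1.28, adjusted p = 0.036), a call lost without KO replicate 2 (adjusted p = 0.116) or WT replicate 1 (0.111). Hist1h4m had 27.5 and 16.6 CPM in KO and 63.6 and 52.0 CPM in WT (log2 fold change -1.39, adjusted p = 0.011). The lowest value of any member, -2.68 for Hist1h4n (adjusted p = 0.031), came from 4 reads in each KO library, and the gene lies inside Hist1h4m. It passed the filter only through its WT reads and lost its call in every fit without a library, with adjusted p from 0.062 to 0.163. Hist4h4 on chromosome 6 and Hist2h4 on chromosome 3, whose clusters lie apart from Hist1, had log2 fold changes of -1.24 and -1.26 (adjusted p = 0.018 for both). Hist4h4 was at 0.052 without KO replicate 2.

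**Figure D3:**
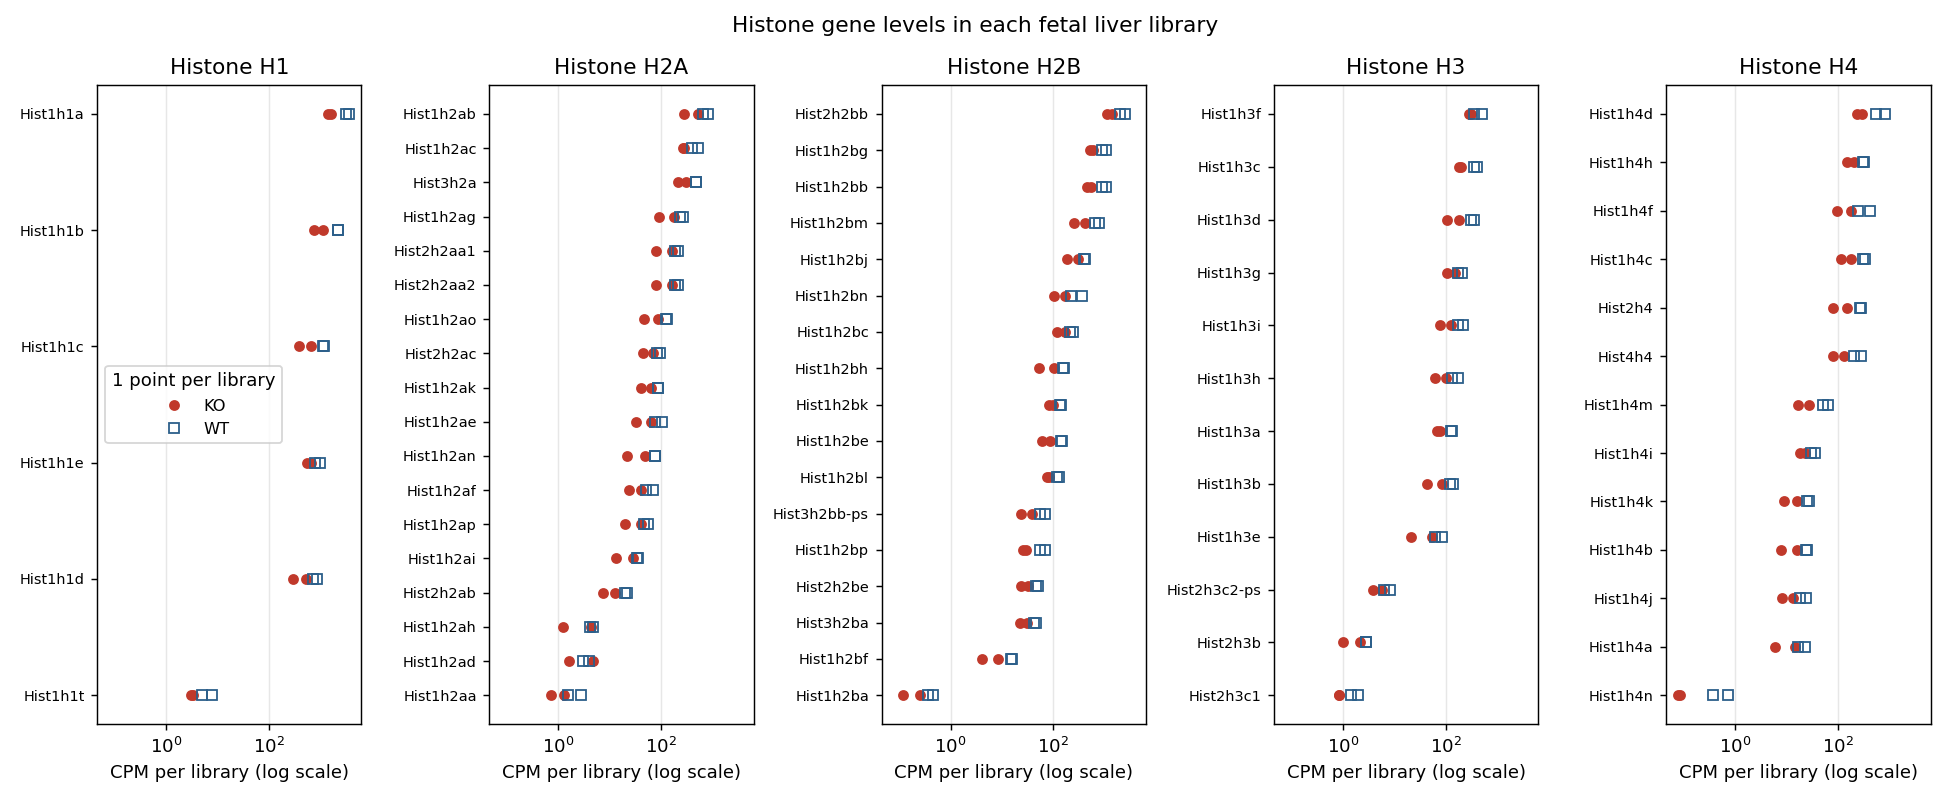
Level of each tested histone gene in each library, in CPM on a log scale, by class; filled circles are the 2 KO libraries and open squares the 2 WT libraries. The circles lie left of the squares for 64 of 66 genes, and overlap for Hist1h2ah and Hist1h2ad.

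Per cluster, 38 of 52 tested Hist1 genes were lower (median -0.94 on the log2 scale), 4 of 10 Hist2 genes (-0.83), all 3 Hist3 genes (-0.85) and the 1 Hist4 gene. Over all genes tested, 9.44% were lower. Compared per kilobase of row, Hist1h1a (2030 CPM per kb in KO, 4602 in WT) and Hist2h2bb (2500 in KO, 4562 in WT) had the highest levels, and among the tested genes Hist1h2ba (0.48 in KO, 1.07 in WT) had the lowest in WT. In WT these 2 genes did not differ beyond their spread. The 3 genes with most reads, Hist1h1a, Hist2h2bb and Hist1h1b, made up 32.3% and 33.4% of the histone reads in KO and 35.3% and 35.8% in WT. Of the 11 genes whose row exceeds 1000 bases, 9 were tested and 6 were lower, with a median of -0.81, beside -0.94 for the 57 shorter rows.

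Many members share sequence with another, so that their single values depend on how reads were placed. Hist1h2ap, Hist1h4n, Hist1h2br, Hist2h3c1 and Hist2h2aa2 lie inside the rows of Hist1h2ao, Hist1h4m, Hist1h2bq, Hist2h3c2-ps and Hist2h2aa1, and the row of Hist1h2be spans up to 497 bases of Hist1h1e. A median of 73.4% of a member's 50-base coding windows occur exactly in another gene. In 51 of 68 members the share is 50% or more, and in 12 it is 100%. Reads that fit several copies can receive a low mapping quality, and reads under 10 were not counted; how the aligner scored them was not given in the sources used here. The 17 members with a lower share than 50% had a median log2 fold change of -1.05 and 14 were lower, beside a median of -0.91 and 32 of 49 tested for the others. All 6 members with no shared coding window (Hist1h1a, Hist1h1b, Hist1h1t, Hist2h2bb, Hist2h2be and Hist4h4) were lower. Without KO replicate 2 the calls of Hist1h1a and Hist1h1b held, and those of Hist1h1t (adjusted p = 0.116), Hist2h2bb (0.084), Hist2h2be (0.058) and Hist4h4 (0.052) did not. Hist2h2be was also at 0.058 without WT replicate 1. Outside its coding part Hist4h4 shares sequence, with 8.14% of the 50-base windows of its transcript found in other genes. Across the 66 tested members, log2 fold change and shared percentage had a Pearson r of 0.16 and a Spearman rho of 0.32, as a description over genes that share libraries and reads.

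**Figure D4:**
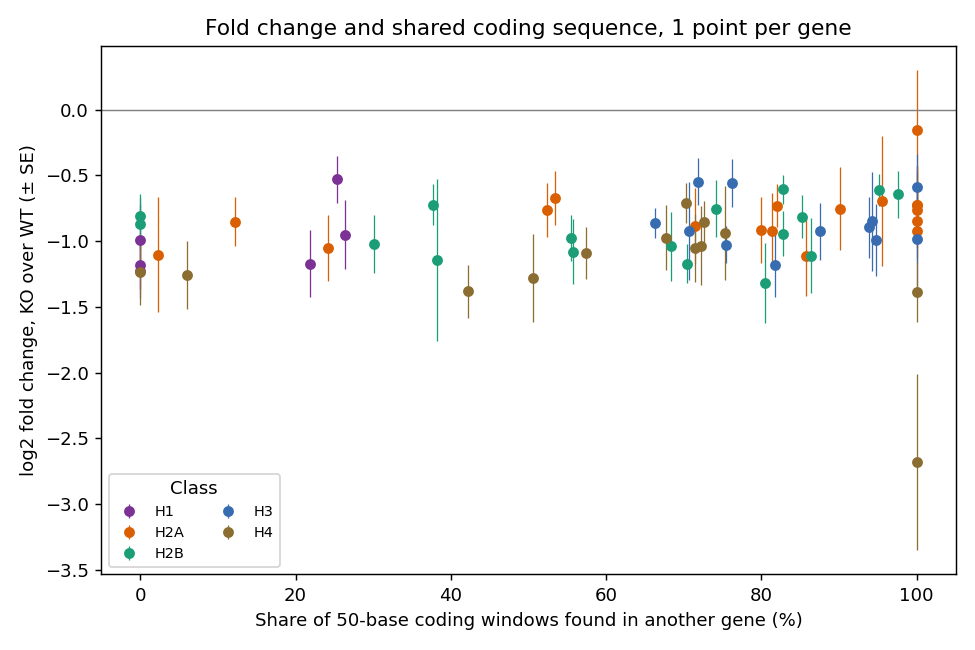
Log2 fold change, KO over WT (with SE), against the percentage of a gene's 50-base coding windows found in another gene, 1 point per tested member, coloured by class. Points lie below 0 at both ends of the axis, with a median of -1.05 under 50% and -0.91 at or above it.

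In 8 of the 10 divergent H2A and H2B pairs both genes were tested, and in 2 both were lower. Hist1h2an and Hist1h2bp had log2 fold changes of -1.11 and -1.17, and Hist1h2ak and Hist1h2bn -0.76 and -1.11. The calls of Hist1h2an, Hist1h2ak and Hist1h2bn did not hold in every fit without a library. Without KO replicate 2 the values of these pairs were -0.65 and -1.06, and -0.46 and -0.80. Without KO replicate 1 they were -1.80 and -1.30, and -1.16 and -1.51. In Hist1h2ai with Hist1h2bl the values were -0.75 and -0.61. Hist1h2ad and Hist1h2bf differed more, at -0.16 and -1.32, with 100% of the coding windows of Hist1h2ad shared. The share was also high in closer pairs, at 85.8% for Hist1h2an and 90.1% for Hist1h2ai.

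Junction reads within histone genes were few. Known junctions occurred in Hist1h2bc, Hist1h2be, Hist1h2bp and Hist1h2bq, and only the Hist1h2bc junction (chromosome 13, 23776490 to 23784045) had over 13 reads in a library. It had 486 and 492 reads in KO, against 356 and 745 in WT. Per 1000000 known junction reads, a unit apart from CPM, this is 68.0 and 70.9 in KO, against 73.0 and 86.4 in WT. The groups did not overlap, with means on this junction scale of 69.4 ± 2.06 in KO and 79.7 ± 9.45 in WT (SD, n = 2 each). Hist1h2bc itself had 118 and 170 CPM in KO and 241 and 209 CPM in WT (log2 fold change -0.64, adjusted p = 0.044, lost in 3 of the 4 fits without a library, at up to 0.137). The junction reads equalled 8.60% and 5.64% of the gene's reads in KO, against 4.56% and 6.40% in WT, which overlap.

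Of 43 genes that act in histone supply and processing, 19 were lower and 0 higher, with a median log2 fold change of -0.30. Over all genes tested, 9.44% were lower and 11.4% higher. Slbp had 128 and 103 CPM in KO, against 155 and 186 CPM in WT (log2 fold change -0.56, adjusted p = 0.037), and its adjusted p was 0.155 without KO replicate 2 and 0.153 without WT replicate 2. Npat (log2 fold change -0.41, adjusted p = 0.034), Casp8ap2 (-0.48, 0.023) and the histone chaperone Nasp (-0.44, 0.040) were lower too, with adjusted p of up to 0.143, 0.111 and 0.194 in the fits without a library. The U7 subunit genes did not pass the test. Lsm10 had 10.8 and 10.4 CPM in KO and 9.87 and 12.1 CPM in WT, and Lsm11 had 21.4 and 20.2 CPM in KO and 21.4 and 21.2 CPM in WT, with overlapping groups in both.

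The genes of this list with the smallest p were E2f1, which activates genes for S phase (log2 fold change -0.88, adjusted p = 0.007), Chaf1b, a subunit of the chaperone that deposits H3 and H4 at replication (-0.87, 0.008), Asf1b, a chaperone of H3 and H4 (-0.76, 0.009), and Ccne2, a cyclin of the entry into S phase (-0.62, 0.012). Ccne2 was at 0.051 without WT replicate 2. Without KO replicate 2 the list had 5 lower genes and 0 higher, without WT replicate 2 it had 4 lower and 1 higher, and without KO replicate 1 or WT replicate 1 it had 12 lower and 0 higher.

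Most genes of DNA replication and mitosis were lower, against 9.44% of all genes tested. Of 50 DNA replication genes 38 were lower and 0 higher (median -0.55), among them Rfc2, a clamp loader subunit, at 76.7 and 72.4 CPM in KO, against 151 and 157 CPM in WT. Of 32 mitosis genes 26 were lower (median -0.62), with Nusap1, a spindle protein, at 161 and 163 CPM in KO, against 313 and 314 CPM in WT. Without KO replicate 2 these counts were 11 and 10, without WT replicate 2, 13 and 12, and without WT replicate 1, 25 and 17. Whether the histone members differ from these lists was not tested.

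Over all genes tested, 9.44% were lower and 11.4% higher. Histone genes that are not tied to replication did not share one direction. Of 12 tested, 4 were lower and 1 higher (median -0.20), and the fits without a library gave 1 to 6 lower and 0 higher. H2afv, an H2A.Z form, had 35.5 and 29.0 CPM in KO, against 58.7 and 53.4 CPM in WT (log2 fold change -0.80, adjusted p = 0.011), and Cenpa, the centromeric H3, was lower by a log2 value of -0.58 (adjusted p = 0.015, and 0.063 without KO replicate 2 or WT replicate 2). H3f3b, a gene for replication-independent H3.3, had 192 and 199 CPM in KO and 177 and 219 CPM in WT (chosen after its values were seen), with overlapping groups. Other RNAs without a poly(A) tail, or not mainly polyadenylated, had 0 lower and 1 higher of 14 tested (median -0.02). Without KO replicate 1, 2 were lower and 0 higher (median -0.36), without WT replicate 1, 1 was lower and 0 higher, and without KO replicate 2 or WT replicate 2 none was called (medians 0.21 and 0.24). The higher gene was Neat1, a nuclear RNA (log2 fold change 0.44, adjusted p = 0.041, and up to 0.206 without a library). Scarna13 had a log2 fold change of -0.50 (adjusted p = 0.130), with -0.85 (adjusted p = 0.029) without KO replicate 1 and -0.23 (adjusted p = 0.474) without KO replicate 2.

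Cell type markers moved with genotype too, beside 9.44% of all genes tested called lower and 11.4% higher. Of 33 erythroid genes 20 were lower and 1 higher (median -0.70; summed 52419 and 40604 CPM in KO, against 84622 and 75710 CPM in WT), with Spna1, the red cell spectrin, at a log2 fold change of -1.05 and Hba-x, an embryonic globin, at 1.42. Of 24 hepatocyte genes 0 were lower and 10 higher (median 0.73), among them Ass1 (1.16) and Otc (0.94), both enzymes of the urea cycle. Leaving out KO replicate 2, WT replicate 1 or WT replicate 2 left 6, 8 or 9 lower erythroid genes. Hepatocyte calls ranged from 3 without WT replicate 2 to 15 without WT replicate 1. Cardiac muscle genes (11 of 14 lower), megakaryocyte genes (9 of 12 higher) and granulocyte genes (6 of 11 higher, 2 with negative values) also differed. The cardiac genes summed to 22.6 and 34.6 CPM in KO, against 87.5 and 528 CPM in WT. Those that passed the filter only through WT reads were not set apart, so their negative values can follow in part from the filter. Myl4 and Myl7, myosin light chains, fell by 4.86 and 3.13 on the log2 scale. In the fits without a library, which tested 14 or 17 cardiac genes, the number of calls changed with the library left out. Median log2 fold changes there ran from -5.85 to -2.64 for cardiac genes, 0.48 to 0.81 for megakaryocyte genes and 0.51 to 0.97 for granulocyte genes. The part that cell makeup has in the histone values was not tested.

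**Figure D5:**
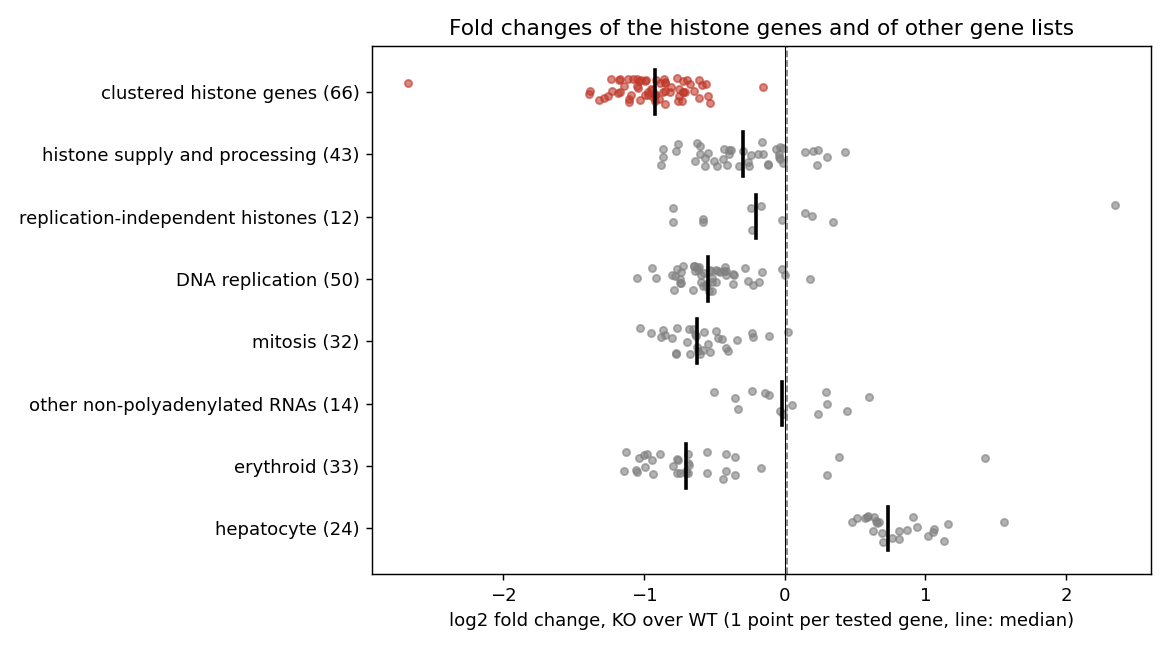
Log2 fold change, KO over WT, of the tested genes of the clustered histone group and of 7 other lists (1 point per gene, number tested in parentheses, black line: median, dashed line: median of all genes). The histone median is -0.92, with DNA replication at -0.55, mitosis at -0.62, erythroid genes at -0.70 and hepatocyte genes at 0.73.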

How the data were processed

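Per the file headers, the authors deposited raw counts of reads per RefSeq transcript row (primary alignments, mapping quality of at least 10), with RPKM values and reads per nucleotide, a coverage signal, which were recomputed from the counts in 100% of rows and entered no test. A second deposited table gives counts of reads per splice junction. The aligner and genome build were not given in the sources used here. From 28283 rows, 1 row per gene was kept, that with most reads over the 4 libraries. Counts were tested with edgeR 4.0.16 (TMM scaling, filterByExpr, quasi-likelihood test, Benjamini-Hochberg adjustment over 15029 genes, threshold 0.05) in R 4.3.3. The test was run on simulated counts with known folds as a check of the code, which does not vouch for the calls reported here. CPM values carry TMM scaling. Members overlapping another (5 genes) were left out of sums. DESeq2 1.42.0 and limma 3.58.1 gave alternatives. Nothing in the labels says more than that the samples are separate mice, so p-values reflect only how these 4 libraries vary, which may be technical. The members and gene lists were chosen with earlier results of these data known. Named genes are those with the highest levels and smallest p of each class and list, plus fixed genes of histone processing and the testis forms; Hist1h1d, Hist1h2ad, Hist1h2ah, Hist1h2ak, Hist1h2bc, Hist1h4n, Hist2h4, Hist4h4 and the genes of divergent pairs were chosen after their values were seen.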

Additional observations from a re-analysis of the deposited data

How the results depend on the processing

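All 66 tested members had negative values with all 4 libraries under the other scalings, filters and tools, and none was called higher; Hist1h2bq and Hist1h2br, tested only in some alternatives, were positive with no filter beyond 1 read. The members called lower numbered 46 with RLE scaling (9.89% of all genes tested) and 46 with TMM factors computed without histone genes (9.55%). Plain library totals gave 49 (6.31%), and no filter beyond 1 read gave 60 of 68 (9.32%). DESeq2 gave 45 (11.8%), limma voom 47 (9.48%) and transcript rows summed 45 (9.06%). In the list of histone supply and processing genes, 1 gene was called higher with plain totals, with no filter beyond 1 read and with the replicate block. Leaving out a library gave 19 to 55 lower members, medians from -1.36 (without KO replicate 1) to -0.63 (without KO replicate 2), 338 to 1187 lower and 648 to 1308 higher genes over all, and a ratio of summed levels between 0.439 and 0.576. With plain totals 949 genes were lower and 2376 higher in all, against 1419 and 1708 in the reported analysis, and the median of all genes was 0.11. Lsm10 and Lsm11 had log2 fold changes of 0.036 and 0.061 with plain totals, and between -0.19 (without WT replicate 1) and 0.097 (without WT replicate 2) for Lsm10 and between -0.080 (without KO replicate 1) and 0.0060 (without KO replicate 2) for Lsm11. The cause was not tested. Deposited table names carry numbers shared by 1 KO and 1 WT library, which the labels do not: with these as a replicate block, 60 members were lower and 1998 and 2337 genes in all were lower and higher. The deviations of same-numbered libraries had r = 0.14 across 15029 genes, and with 2 pairs this does not show pairing. Windows of 35 bases gave a median shared percentage of 81.4%. With 2 libraries a group, the spread between mice is poorly known.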
